A study of Bos taurus with 12 samples.

Results

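Liver of neonatal Holstein heifer calves was examined for the 10 genes of sulfation: the cytosolic sulfotransferases SULT1A1, SULT1B1, SULT1C4, SULT1E1 and SULT2A1, the sulfate-activating enzymes PAPSS1 and PAPSS2, the sulfate transporter SLC26A1 and the Golgi tyrosine sulfotransferases TPST1 and TPST2. They were taken by gene symbol from the 30336 genes counted, with no threshold on a measured value but with earlier results of these data known, and all 10 were found by Entrez ID through a RefSeq gene table. The calves were born to cows fed a basal close-up diet without added Met (CON, 6 libraries) or this diet plus ethyl-cellulose rumen-protected Met (MET, 6 libraries) during the final 28 d before calving. The supplement went to the cows only. All calves were fed and managed alike after birth, and liver was biopsied at 4 d of age and sequenced as stranded mRNA libraries. The comparison asks whether Met supply to the dam was followed by different expression of sulfation genes in the calf.

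Sulfation adds a sulfate group to hormones, bile acids, drugs and proteins. Sulfate is first joined to ATP and phosphorylated to give the sulfate donor 3'-phosphoadenosine 5'-phosphosulfate (PAPS), from which the sulfotransferases pass it on. Liver is the main site of sulfation of steroids and phenols, and its inorganic sulfate comes from the blood and from oxidation of the sulfur of Met and cysteine.

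The libraries held 8277789 to 10397604 counted reads (medians 9211720 for CON and 9872815 for MET). The counts of CON replicates 1 and 4 were near-identical, as were those of MET replicates 1 and 3. Their chi-square per gene was at most 1.31, near the value that sampling noise gives, against 23.2 to 122 in the other 64 pairs of libraries. The highest value was between CON replicate 6 and MET replicate 5. Among pairs without MET replicate 5 the highest was 75.5, between CON replicate 6 and MET replicate 4. A near-identical pair entered as 1 sample. Values below are therefore means ± SD of 5 CON and 5 MET samples, in CPM, the counts of a gene per 1e+06 reads of its library after TMM normalization. Tests are given for the 12 libraries and for the 10 samples, with summed reads for each pair. The CON and MET libraries carried different first indexes on 1 lane, so index and diet cannot be told apart. All 10 hepatocyte markers were detected, with ALB, TF and FGB the most abundant. Their summed level was 137400 to 184700 CPM in CON and 112000 to 145600 CPM in MET, with 7 of 10 log2 fold changes negative over the 12 libraries and 1 gene called lower in MET (edgeR quasi-likelihood test). Most of this sum was ALB, TF and FGB, with means of 62220, 51600 and 35450 CPM in CON. In MET these means were 39450, 41170 and 38690 CPM, so ALB and TF were lower and FGB was higher. The summed level of the 10 Kupffer cell markers was 1421 to 1879 CPM in CON and 1705 to 2263 CPM in MET, with all 10 log2 fold changes positive and 2 genes called higher. That of the 8 stellate cell and fibroblast markers was 634 to 973 CPM in CON and 473 to 843 CPM in MET, with all 8 negative and 1 called lower. Cholangiocyte markers summed to 61.7 to 102 CPM in CON and 41.1 to 82.5 CPM in MET (4 of 5 tested negative, 1 called lower), and lymphocyte and granulocyte markers to 19.2 to 37.1 CPM and 17.8 to 85.2 CPM (5 of 6 tested positive, 0 called). Endothelial markers summed to 361 to 569 CPM and 323 to 557 CPM, and erythroid markers to 8.82 to 1085 CPM and 65.7 to 591 CPM, with 0 called in either list. These calls and signs are over the 12 libraries, where 2.09% of all genes were called higher and 2.32% lower. Of the 13212 genes tested there, 6654 had a negative log2 fold change. Over the 10 samples edgeR called 0 in each list. At an unadjusted p of 0.05, 5 Kupffer cell markers were higher over the 12 libraries and 4 over the 10 samples (10.2% and 7.83% of all genes), and 3 hepatocyte markers were lower in each (10.4% and 8.52%). Stellate cell markers had 2 and 1 lower, cholangiocyte and endothelial markers 1 in each, and the other lists 0. DESeq2 called 4 and 2 Kupffer cell markers, 3 and 3 hepatocyte markers, 1 and 0 stellate cell markers, 1 and 0 cholangiocyte markers and 0 in the other lists (9.95% and 4.83% of all genes). None of the markers found was at 0 in all samples. In bulk tissue, fewer cells of a type and less RNA per cell cannot be told apart.

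None of the sulfation genes passed the threshold of an FDR of 0.10, the adjusted p of edgeR's quasi-likelihood test over all genes tested. Of the 10 genes, 9 had reads and passed the filter on low counts, SULT1C4 being the exception. Over the 12 libraries 0 of 9 were called, where 4.41% of the 13212 genes tested were called, and over the 10 samples 0 of 9 were called, where the share over all genes was 0%. At an unadjusted p of 0.05, 2 of 9 were lower in MET over the 12 libraries (SULT1E1 and PAPSS2), where 10.4% of all genes were, and 3 of 9 over the 10 samples (these and SULT1B1), where 8.52% of all genes were. At the same p 0 of 9 were higher in either fit, where 10.2% and 7.83% of all genes were. DESeq2 called SULT1E1 alone, lower in MET, over the 12 libraries and over the 10 samples, where it called 9.95% and 4.83% of all genes in either direction. In each of the 9 genes the CPM of the diets overlapped, whereas the diets did not overlap in 3.71% of the genes tested. The fitted log2 fold change of MET against CON over the 12 libraries was negative in 8 genes and positive in 1. Of all genes tested, 6654 had a negative and 6558 a positive value. Among the 8, SULT1A1, PAPSS1 and TPST1 were near 0 and changed sign in some fits that left out a library. The median of the 9 genes was -0.18, beside -0.0031 over all genes tested. Over the 10 samples the median of the 9 genes was -0.08, beside -0.0028.

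**Figure D1:**
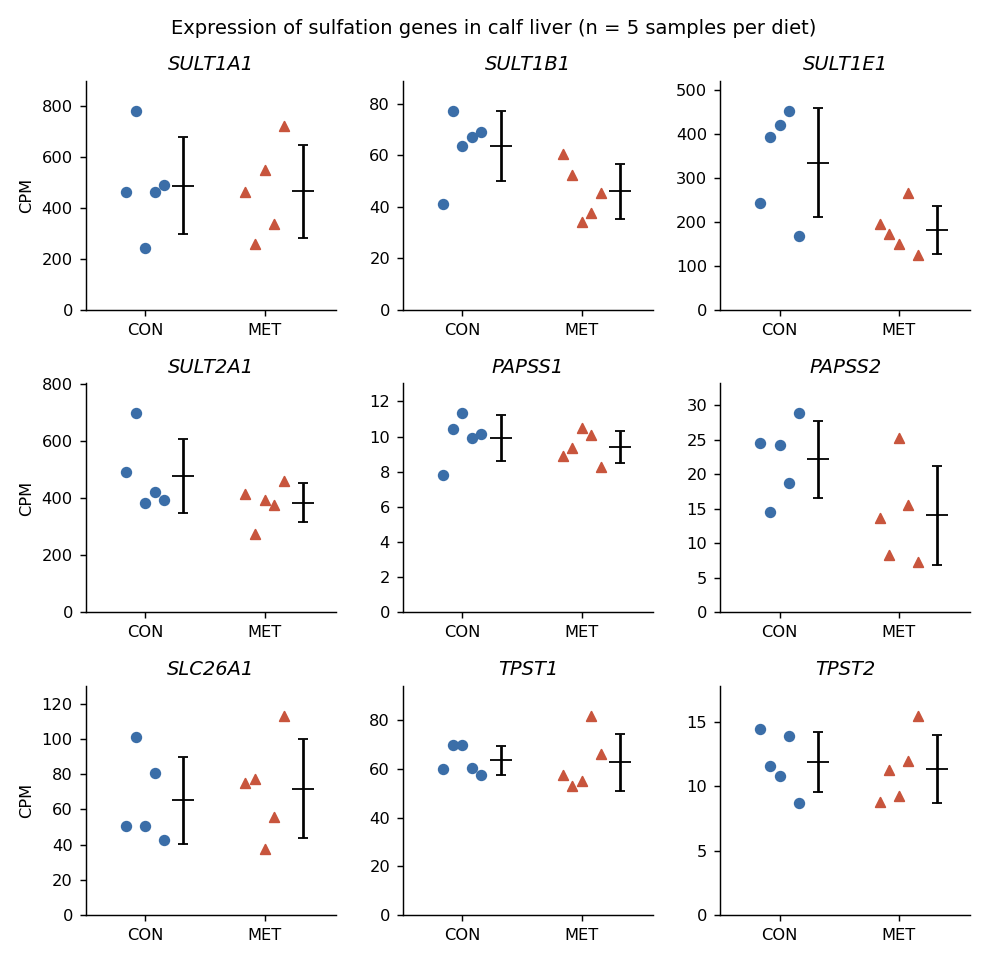
Expression in CPM (y axis from 0) of the 9 sulfation genes with reads in CON (blue circles) and MET (red triangles) samples. Each point is 1 sample, with near-identical libraries averaged, and bars are the mean ± SD of 5 samples. SULT1E1 averaged 334 CPM in CON and 182 CPM in MET, with overlap between 167 and 266 CPM.

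**Figure D2:**
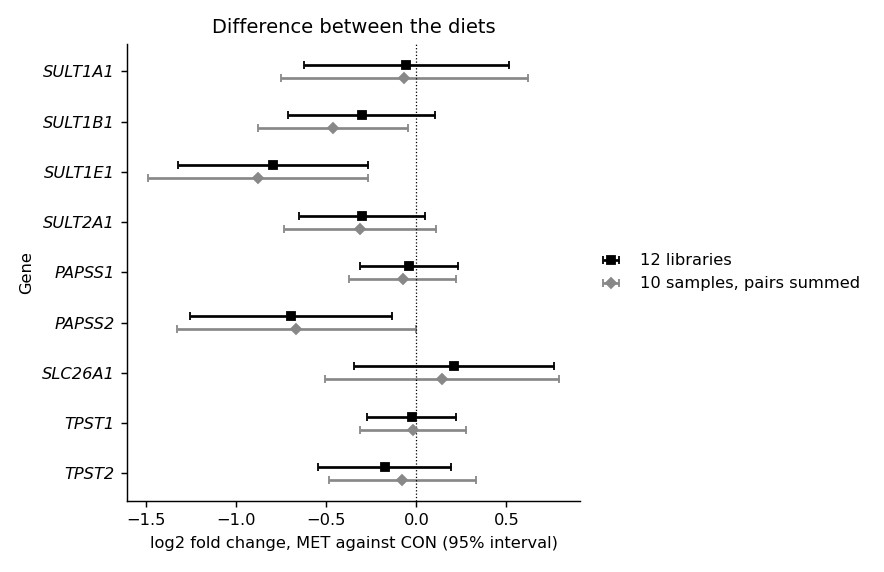
Fitted log2 fold change of MET against CON (x axis) for each gene, over the 12 libraries (black squares) and over the 10 samples with near-identical libraries summed (grey diamonds). Bars are 95% intervals of the fitted coefficient before adjustment for the number of genes. The intervals of SULT1E1 and PAPSS2 lie below 0 in both fits, and neither gene passed the FDR threshold in edgeR's quasi-likelihood test. DESeq2 called SULT1E1 over the 12 libraries and over the 10 samples (adjusted p of 0.0348 and 0.0599).

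SULT1E1, the estrogen sulfotransferase, had the most negative log2 fold change of the 9 genes in both edgeR fits, although that of PAPSS2 was more negative with voom (-0.80 against -0.75), with the replicate block and without CON replicate 2, CON replicate 5 or MET replicate 4. It was also more negative in the difference of mean log2 CPM over the 12 libraries (-0.77 against -0.74). In CON its level was 243 CPM in the sample of replicates 1 and 4, 391 CPM in replicate 2, 418 CPM in replicate 3, 452 CPM in replicate 5 and 167 CPM in replicate 6. In MET it was 195 CPM in the sample of replicates 1 and 3, 173 CPM in replicate 2, 149 CPM in replicate 4, 266 CPM in replicate 5 and 125 CPM in replicate 6. Of the 5 CON samples, 3 were thus above every MET sample, and the other two lay within the MET range. The mean was 334 ± 123 CPM in CON and 182 ± 54.1 CPM in MET. In the 12 libraries the log2 fold change was -0.79 (SE 0.25, 95% interval -1.32 to -0.27, FDR = 0.108, edgeR quasi-likelihood test), a fold of 0.577. Over the 10 samples it was -0.88 (SE 0.28, 95% interval -1.49 to -0.27, FDR = 0.192 by the same test). With the 12 libraries DESeq2 gave an adjusted p of 0.0348, and with the 10 samples one of 0.0599, both under the threshold. The exact permutation test gave p = 0.0556 over the 10 samples and p = 0.0346 over the 12 libraries, the smallest possible values being 0.00794 and 0.00216. The difference was thus on either side of the threshold depending on the tool, and it was called by edgeR when CON replicate 6, the lowest CON library (FDR = 0.0766), or MET replicate 5, the highest MET library (FDR = 0.0968), was left out. Of the 10 hepatocyte markers, ALB had the most negative log2 fold change over the 12 libraries (-0.65). Its FDR was 0.107, and 0.238 over the 10 samples (edgeR quasi-likelihood test). The median of the 10 markers over the 12 libraries was -0.26, with 7 values negative and 3 positive. The part of the hepatocyte and Kupffer cell levels in the SULT1E1 result was not tested.

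SULT1A1, the main phenol sulfotransferase, and SULT2A1, which sulfates dehydroepiandrosterone, other hydroxysteroids and bile acids, were the most abundant members. SULT1A1 was 461, 780, 244, 461 and 490 CPM in CON samples 1 with 4, 2, 3, 5 and 6, and 461, 257, 550, 337 and 721 CPM in MET samples 1 with 3, 2, 4, 5 and 6. Each diet covered almost the whole range of the other, with means of 487 ± 191 CPM and 465 ± 182 CPM. The log2 fold change was -0.06 over the 12 libraries (95% interval -0.62 to 0.51, FDR = 0.934). It was -0.07 over the 10 samples (95% interval -0.75 to 0.62, FDR = 0.939, both edgeR quasi-likelihood tests). Both intervals include changes of over 0.5 on the log2 scale in both directions. The sign of the 12-library value turned positive when CON replicate 2, MET replicate 2 or MET replicate 5 was left out (0.13, 0.07 and 0.02).

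SULT2A1 was 492, 696, 384, 422 and 392 CPM in the CON samples, and 416, 275, 392, 376 and 460 CPM in the MET samples, in the same order. The highest value was in CON and the lowest in MET, and the other 8 samples lay between 376 and 492 CPM. The means were 477 ± 130 CPM in CON and 384 ± 68.7 CPM in MET. The log2 fold change of -0.30 (95% interval -0.65 to 0.05) did not pass the threshold over the 12 libraries (FDR = 0.315) or over the 10 samples (-0.31, FDR = 0.445, both edgeR quasi-likelihood tests).

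SULT1B1, which sulfates thyroid hormones and small phenols, lies near SULT1E1 on chromosome 6, with SULT1D1 between them. It was 41.0, 77.3, 63.6, 67.1 and 69.2 CPM in the CON samples and 60.5, 52.4, 34.2, 37.8 and 45.6 CPM in the MET samples. Of the 5 CON samples, 4 were above every MET sample, and the CON sample of replicates 1 and 4 was below 3 of the 5 MET samples. The means were 63.7 ± 13.6 CPM in CON and 46.1 ± 10.7 CPM in MET. How the near-identical libraries were counted moved this gene most: the log2 fold change was -0.30 over the 12 libraries (95% interval -0.71 to 0.11, FDR = 0.388) and -0.46 over the 10 samples (95% interval -0.88 to -0.04, unadjusted p = 0.0328, FDR = 0.269, edgeR quasi-likelihood test). The exact permutation p was 0.0635 over the 10 samples and 0.197 over the 12 libraries. It was 0.0159 without the CON sample of replicates 1 and 4, and 0.0397 without the MET sample of replicates 1 and 3.

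SULT1C4, a member of the SULT1C branch of phenol sulfotransferases, had 0 reads in each of the 12 libraries. With 3 reads as the floor, this allows a level of up to 0.289 to 0.362 CPM in a library, counting error only. The gene with this symbol has Entrez ID 537919 and lies on chromosome 9 (chr9:34516801-34548809, minus strand, UMD 3.1.1). A different locus, LOC783020, carries SULT1C2 and SULT1C4 as synonyms in the RefSeq table and lies next to SULT1C2 and SULT1C3 on chromosome 11 (chr11:44723278-44734950, minus strand). It is no member by the rule and was looked up after its counts were seen. It had 20289 reads in all, with 200 ± 43.2 CPM in CON and 158 ± 30.7 CPM in MET. Its log2 fold change was -0.38 over the 12 libraries (FDR = 0.193) and -0.34 over the 10 samples (FDR = 0.384, both edgeR quasi-likelihood tests). Reads that matched several places were not counted, so that the levels of genes with a near-identical copy are uncertain, and reads shared with a copy would be missing from SULT1C4 as well.

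PAPSS1 and PAPSS2 each make PAPS from sulfate and ATP. PAPSS2, the more abundant of both synthases in this liver, was 24.5, 14.6, 24.2, 18.8 and 28.8 CPM in CON samples 1 with 4, 2, 3, 5 and 6, and 13.7, 8.40, 25.3, 15.6 and 7.32 CPM in MET samples 1 with 3, 2, 4, 5 and 6. Of the MET samples, 3 were below every CON sample, whereas MET replicate 4 was above all CON samples but the highest. The means were 22.2 ± 5.56 CPM in CON and 14.1 ± 7.19 CPM in MET. The log2 fold change was -0.69 (SE 0.26, 95% interval -1.26 to -0.13, FDR = 0.162) over the 12 libraries and -0.67 (SE 0.31, 95% interval -1.33 to -0.00, FDR = 0.304, edgeR quasi-likelihood test) over the 10 samples. The exact permutation p was 0.0794 over the 10 samples and 0.0346 over the 12 libraries. Without MET replicate 4 the gene was called (log2 fold change -0.94, FDR = 0.0819, edgeR quasi-likelihood test). The hepatocyte marker levels given above stand beside this gene as well, and their part was not tested.

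PAPSS1 lay between 7.82 and 11.3 CPM in CON and between 8.25 and 10.5 CPM in MET, with means of 9.93 ± 1.29 CPM and 9.41 ± 0.896 CPM. Its coefficient of variation was 13.03% in CON and 9.53% in MET, where counting error alone gives 9.90 to 12.3% in a library at its 102 to 66 reads. The log2 fold change was -0.04 over the 12 libraries (95% interval -0.31 to 0.23, FDR = 0.894). It was -0.08 over the 10 samples (95% interval -0.37 to 0.22, FDR = 0.82, both edgeR quasi-likelihood tests). For PAPSS2 the coefficients were 25.1% in CON and 51.1% in MET, where counting error gives 6.00 to 11.9% in a library. Per gene length, PAPSS2 exceeded PAPSS1 in all samples, by 2.19 to 4.92 times in CON (median 3.36) and by 1.39 to 3.795 times in MET (median 2.42).

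SLC26A1, an anion exchanger that carries sulfate across the sinusoidal membrane of hepatocytes, was the only member with a positive log2 fold change. It was 50.4, 101, 50.3, 80.8 and 42.8 CPM in the CON samples and 75.1, 77.3, 37.4, 56.0 and 113 CPM in the MET samples. The diets overlapped almost fully, with means of 65.2 ± 25.0 CPM and 71.8 ± 28.3 CPM. The log2 fold change was 0.21 over the 12 libraries (95% interval -0.35 to 0.76, FDR = 0.687). It was 0.14 over the 10 samples (95% interval -0.51 to 0.79, FDR = 0.851, both edgeR quasi-likelihood tests). The gene shares 232 exonic bases with IDUA and another gene on the opposite strand, and the counting was stranded.

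TPST1 and TPST2 sulfate tyrosines of secreted and membrane proteins in the Golgi. TPST1 was 57.5 to 69.8 CPM in CON and 52.8 to 81.8 CPM in MET, and TPST2 was 8.72 to 14.5 CPM in CON and 8.77 to 15.5 CPM in MET. The mean of TPST1 was 63.5 ± 5.83 CPM in CON and 62.7 ± 11.8 CPM in MET. Its log2 fold change was -0.02 over the 12 libraries (95% interval -0.27 to 0.22, FDR = 0.933). Over the 10 samples it was -0.02 as well (95% interval -0.31 to 0.275, FDR = 0.961, both edgeR quasi-likelihood tests). The mean of TPST2 was 11.9 ± 2.34 CPM in CON and 11.3 ± 2.67 CPM in MET, and the 12 libraries gave a log2 fold change of -0.18 (95% interval -0.54 to 0.19, FDR = 0.598 by the same test). With near-identical libraries summed it was -0.08 (95% interval -0.49 to 0.33, FDR = 0.874 by the same test). Per gene length, TPST1 exceeded TPST2 by 3.26 to 5.19 times in CON and by 3.37 to 5.37 times in MET. PAPSS1 and TPST1 thus had the narrowest intervals of the 9 genes.

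Levels of different genes were compared as CPM per kilobase of exons (RPKM) over the 10 samples. SULT2A1 averaged 314 ± 79.8 RPKM and SULT1A1 301 ± 111 RPKM, above 98.2% and 98.1% of the genes tested, and SULT1A1 was below SULT2A1 in 7 of 10 samples, so that their order was not fixed. SULT1E1 followed with 137 ± 64.0 RPKM and was below SULT1A1 in 9 of 10 samples. TPST1 was at 28.8 ± 4.02 RPKM, SULT1B1 at 22.5 ± 6.06 RPKM and SLC26A1 at 18.6 ± 6.90 RPKM, with SULT1B1 below TPST1 and SLC26A1 below SULT1B1 in 9 of 10 samples each. PAPSS2 at 9.71 ± 3.98 RPKM and TPST2 at 6.74 ± 1.39 RPKM each exceeded the gene before them in 2 of 10 samples. PAPSS1 was lowest of the genes with reads, at 3.30 ± 0.370 RPKM, in all 10 samples. The mean RPKM of both PAPS synthases was lower than that of each of the 4 cytosolic members with reads.

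**Figure D3:**
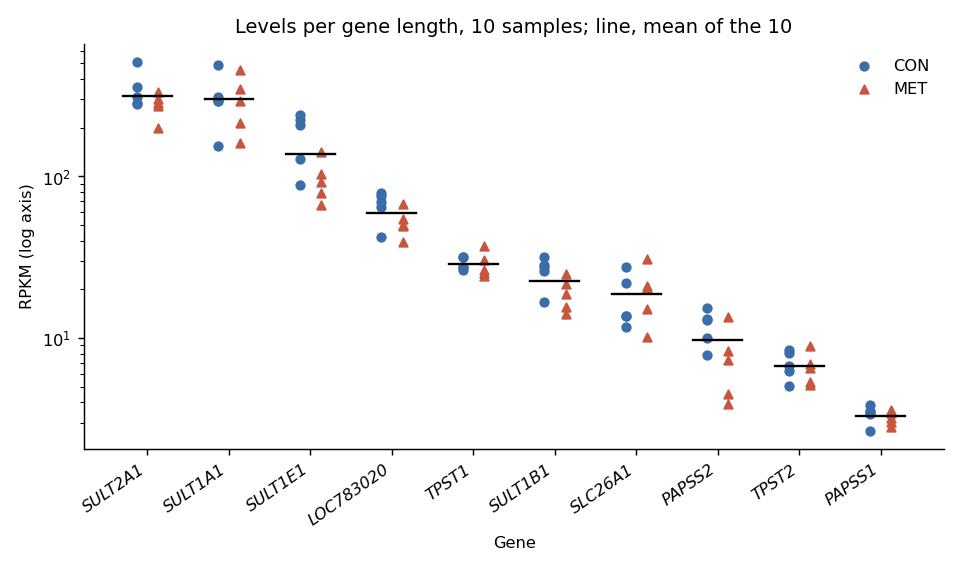
Levels in CPM per kilobase of exons (RPKM, log axis) of the 9 sulfation genes with reads and of LOC783020, ordered by their mean over 10 samples (black line). Blue circles are CON samples and red triangles MET samples. Means run from 314 RPKM for SULT2A1 to 3.30 RPKM for PAPSS1.

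Among the 11 cytosolic SULT genes counted, SULT1A1 and SULT2A1 together made up 59.3 to 83.1% of the summed RPKM. The SULT2A1 share varied less, from 32.4 to 40.5% in CON (median 38.3%) and 35.2 to 39.0% in MET (median 37.7%). The SULT1A1 share was 21.0 to 39.3% in CON (median 32.9%) and 30.2 to 47.8% in MET (median 37.3%). SULT1E1 held 11.3 to 30.4% in CON (median 15.9%) and 6.98 to 20.1% in MET (median 13.3%), and LOC783020 4.92 to 9.34% over all samples. CON replicates 3 and 5 had the highest SULT1E1 shares. The summed level was 731 to 1310 RPKM in CON (median 884) and 532 to 951 RPKM in MET (median 776), so that the diets overlapped. Shares of a sum depend on each other and were not tested.

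**Figure D4:**
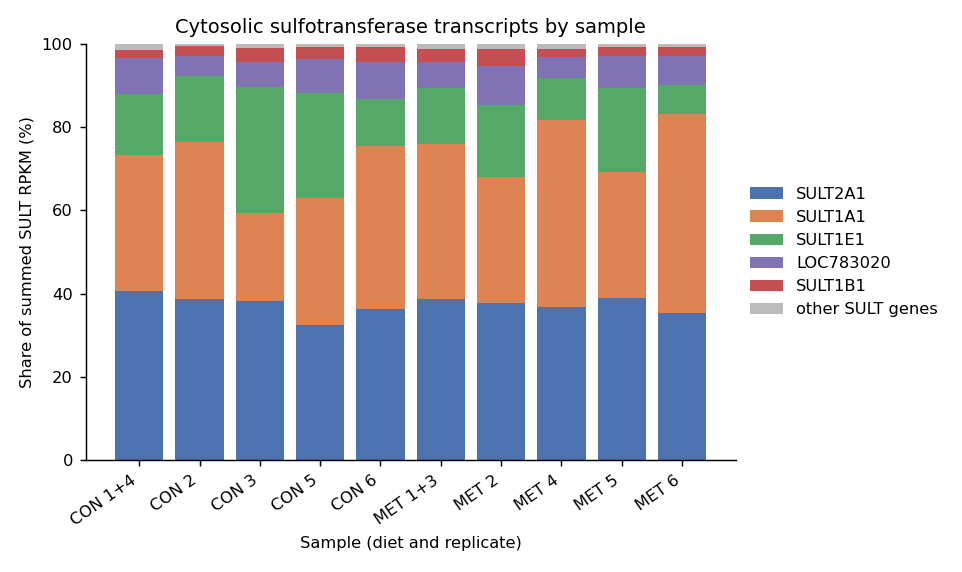
Share of each gene in the summed RPKM of the cytosolic SULT genes (y axis, percent) in the 5 CON and 5 MET samples, with near-identical libraries averaged. The SULT2A1 share (bottom) stays between 32.4 and 40.5%, and the SULT1E1 share (green) runs from 6.98% in MET replicate 6 to 30.4% in CON replicate 3.

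Relations between the members were computed for the 36 pairs of the 9 genes, on log2 CPM over the 10 samples. In 0 of the 36 pairs did the adjusted p reach 0.10. The pair with the lowest p was PAPSS2 with SLC26A1, with r = -0.82 (permutation p = 0.00403, adjusted p = 0.127) and rho = -0.84 (permutation p = 0.00375, adjusted p = 0.135). Without the 2 samples farthest from the median of PAPSS2, r was -0.81, and after subtraction of the diet means it was -0.93. MET replicate 6 had the lowest PAPSS2 and the highest SLC26A1, and MET replicate 4 had the lowest SLC26A1 with the second highest PAPSS2. SULT1A1 and SULT2A1 followed with r = 0.77 (permutation p = 0.00707, adjusted p = 0.127) and rho = 0.73 (permutation p = 0.0203, adjusted p = 0.364). Without 2 samples r was 0.71, and after subtraction of the diet means 0.84.

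**Figure D5:**
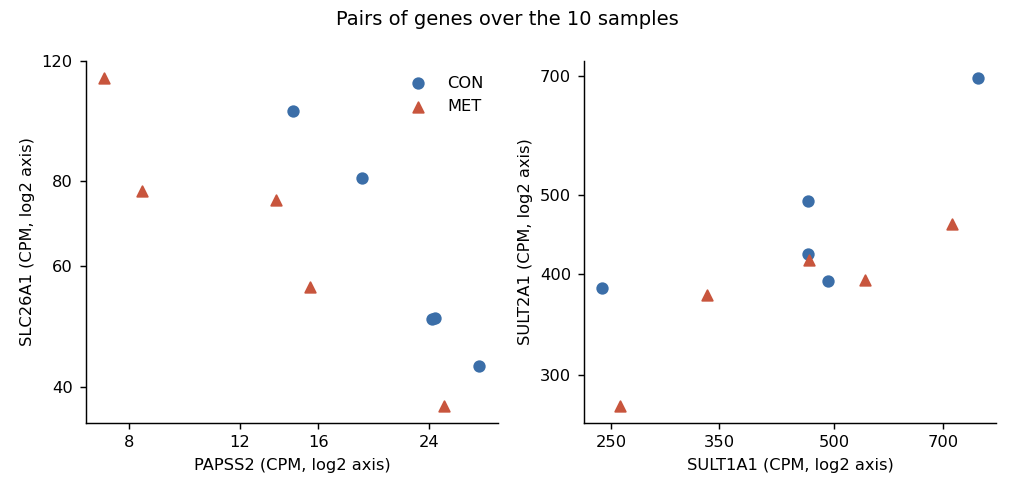
CPM of SLC26A1 against PAPSS2 (left) and of SULT2A1 against SULT1A1 (right), both axes on a log2 scale, in 5 CON (blue circles) and 5 MET samples (red triangles). The points slope down in the left panel (r = -0.82) and up in the right panel (r = 0.77), with a permutation p of 0.127 for each after adjustment over 36 pairs.

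The genes before and beside sulfate activation were followed as lists. Of 13 tested genes that form sulfite and sulfate from cysteine and sulfide or build the molybdenum cofactor of sulfite oxidase, 2 were called higher and 0 lower over the 12 libraries, and 0 were called over the 10 samples (edgeR quasi-likelihood test). The shares called over all genes were 2.09% higher and 2.32% lower in the first fit and 0% in the second. At an unadjusted p of 0.05, 3 were higher and 1 lower in each fit (10.2% and 10.4% of all genes over the 12 libraries, 7.83% and 8.52% over the 10 samples). DESeq2 called 3 and 2 (9.95% and 4.83% of all genes). GOT1, the cytosolic aspartate aminotransferase, which also acts on cysteine sulfinate, rose from 68.0 ± 21.2 CPM in CON to 123 ± 25.8 CPM in MET (log2 fold change 0.99, FDR = 0.0674 over the 12 libraries, 0.175 over the 10 samples). SQOR, which oxidizes hydrogen sulfide in mitochondria, rose from 77.9 ± 8.43 CPM to 114 ± 22.1 CPM (0.52, FDR = 0.0684 and 0.175). Both lost the call when CON replicate 1 or 4 or MET replicate 1 or 6 was left out (FDR = 0.101 to 0.125, edgeR quasi-likelihood test). CDO1, which makes cysteine sulfinate from cysteine, was at 484 ± 64.2 CPM in CON and 364 ± 72.4 CPM in MET. Its log2 fold change was -0.44 over the 12 libraries (FDR = 0.108) and -0.41 over the 10 samples (FDR = 0.25, both by edgeR's quasi-likelihood test). SUOX, sulfite oxidase, which makes sulfate itself, was at 65.2 ± 13.7 CPM and 61.2 ± 7.84 CPM. Its log2 fold change was -0.14 over the 12 libraries (FDR = 0.608) and -0.09 over the 10 samples (FDR = 0.808, both by the same test). SUOX is outside the rule for named genes and was added for its place in the pathway. The median log2 fold change of the 13 genes was 0.08, beside -0.0031 over all genes.

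Of 10 tested genes for other sulfate carriers and for transport or removal of PAPS and its product, 0 were called over the 12 libraries or the 10 samples (4.41% and 0% of all genes), with 1 lower at an unadjusted p of 0.05 in each, near the shares over all genes (10.4% and 8.52%; median log2 fold change -0.03, edgeR quasi-likelihood test). DESeq2 called 1 over the 12 libraries and 0 over the 10 samples, where it called 9.95% and 4.83% of all genes. The gene lower at that unadjusted p, the anion transporter SLC26A7, had 3.40 ± 1.19 CPM in CON and 1.80 ± 0.750 CPM in MET, from 277 reads in all. Its log2 fold change was -0.94 over the 12 libraries (FDR = 0.111) and -0.93 over the 10 samples (FDR = 0.22, both edgeR quasi-likelihood tests). Of the other cytosolic SULT genes, SULT1C2, SULT1C3 and SULT2B1 were tested, and 0 were called by edgeR or DESeq2 or had an unadjusted p of 0.05 or less, and with 3 genes the shares over all genes (4.41% and 0% by edgeR, 9.95% and 4.83% by DESeq2) leave this count uninformative. SULT1C2 was at 10.1 ± 6.13 CPM in CON and 9.63 ± 0.521 CPM in MET, SULT1C3 at 1.80 ± 0.644 and 2.01 ± 0.801 CPM, and SULT2B1 at 1.90 ± 0.856 and 1.98 ± 1.24 CPM. SULT1D1 had 0 reads, and SULT4A1 had 8 reads in all.

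The Golgi enzymes that sulfate sugars of proteoglycans and glycolipids also use PAPS. Of 34 such genes found, 5 had 0 reads and 16 were tested, and 0 were called over the 12 libraries or the 10 samples, where 4.41% and 0% of all genes were. At an unadjusted p of 0.05, 2 were lower and 0 higher in each fit (edgeR quasi-likelihood test), beside 10.4% and 8.52% of all genes that were lower, and DESeq2 called 0 in each, beside 9.95% and 4.83% of all genes. Over the 12 libraries these were CHST2, with 7.62 ± 0.824 CPM in CON and 6.12 ± 0.589 CPM in MET (log2 fold change -0.27, FDR = 0.217), and GAL3ST1, with 6.89 ± 2.60 CPM and 4.85 ± 1.11 CPM (-0.54, FDR = 0.222, edgeR quasi-likelihood test). Over the 10 samples they were CHST2 and HS3ST1, a heparan sulfate sulfotransferase with 110 reads in all, at 1.27 ± 0.292 CPM in CON and 0.599 ± 0.414 CPM in MET (-0.93, FDR = 0.296 by the same test). The median over the 16 genes was -0.07 over the 12 libraries, with 13 negative and 3 positive values, beside 6654 and 6558 of all genes tested.

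By position, SULT1B1 (chr6:86916923-86960205), SULT1E1 (chr6:87035897-87094959), PAPSS1 (chr6:18666133-18854670) and SLC26A1 (chr6:109089297-109097227) lie on chromosome 6 of UMD 3.1.1. SULT1A1 (chr25:26381303-26385230) and TPST1 (chr25:28329652-28445476) lie on chromosome 25, SULT2A1 (chr18:55173165-55191624) on chromosome 18, TPST2 (chr17:68445520-68499477) on chromosome 17 and PAPSS2 (chr26:9292116-9402158) on chromosome 26. Counts covered all annotated exons, 5 in SLC26A1 to 14 in PAPSS1, untranslated parts included. None of the members shared exonic bases with another gene on its own strand.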

How the data were processed

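Raw counts of reads per gene of 12 liver libraries (6 CON, 6 MET by their labels) were used as deposited. After trimming with Trimmomatic 0.33, the authors mapped the reads with STAR 2.5.3a to UMD 3.1.1, a bovine assembly, and counted uniquely assigned reads by strand over the exons of each Entrez gene with featureCounts 1.5.2, without normalization (per the labels, the submitters' processing notes and the file headers). Depth was 8277789 to 10397604 counted reads per library. The read floor covers counting error only, because PCR copies cannot be told from separate molecules.

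Symbols came from a RefSeq gene table of assembly ARS-UCD2.0, which named 25105 of 30336 gene IDs, and coordinates from the count files. CPM and RPKM were computed with TMM library sizes in edgeR 4.0.16 (R 4.3.3). MET was compared with CON by edgeR's quasi-likelihood test (model with diet only, genes kept by the default filter at count 10 and total 15, 13212 tested), with Benjamini-Hochberg adjustment over all genes and a threshold of 0.10. Near-identical libraries were found by a chi-square over genes with at least 10 reads and summed for the fit over 10 samples (13242 genes tested). Single genes were also compared by exact two-sided permutation over 252 arrangements of 10 samples or 924 of 12 libraries, using log2 CPM and 2 as the prior count. Correlations had two-sided permutation tests. Alternatives were other normalizations, DESeq2 1.42.0, limma 3.58.1 (voom), robust estimation, other filters, a gene length correction, a replicate block, and each library left out. The edgeR, DESeq2, voom and length-corrected fits were run on simulated counts, and the permutation test on small sets with known answers. The other steps were not tested in this way.

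The members and gene lists were chosen with earlier results of these data known. All members are named, and of the other lists, genes past the threshold or with the lowest p, at most 3 per list. No sequence is shown, because none was used here. The study describes 6 calves per diet, whereas near-identical libraries left 5 samples per diet here.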

Additional observations from a re-analysis of the deposited data

How the results depend on the processing

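The number of sulfation genes called was 0 over the 12 libraries and 0 in the other fits with these exceptions. It was 1 with DESeq2 over the 12 libraries and 1 with DESeq2 over the 10 samples (SULT1E1 in both), and it ranged from 0 to 1 when single libraries were left out. The number called over all genes was 583, and it was 107 with library size only, 1314 with DESeq2, 238 with no filter on low counts, 247 with the gene length correction and 0 over the 10 samples with edgeR (1037 higher and 1128 lower at an unadjusted p of 0.05, and 639 with DESeq2). It ranged from 26 (without CON replicate 1) to 565 (without CON replicate 2) when single libraries were left out, and was 0 when 1 library of each near-identical pair was left out, an alternative chosen after seeing the data. With the replicate number as a block, 6 genes were called over all genes and 0 members, with log2 fold changes of -0.75 for SULT1E1 (FDR = 0.143) and -0.76 for PAPSS2 (FDR = 0.184, edgeR quasi-likelihood test). Same-numbered libraries deviated together with r between -0.19 and 0.15. This gave no sign that the numbers pair the samples, though a weak shared effect could go unseen. Left out singly, libraries moved the fitted log2 fold change between -0.23 and 0.13 for SULT1A1, between -0.10 and 0.013 for PAPSS1 and between -0.12 and 0.018 for TPST1, and the sign of the other 6 members held. Their ranges were -0.36 to -0.16 for SULT2A1 (highest without CON replicate 2), 0.034 (without MET replicate 6) to 0.40 (without CON replicate 2) for SLC26A1, -0.30 (without MET replicate 6) to -0.099 (without CON replicate 1) for TPST2, -0.39 to -0.22 for SULT1B1, -0.93 to -0.67 for SULT1E1 and -0.94 to -0.57 for PAPSS2. In the exact permutation test, samples left out singly moved the difference in mean log2 CPM between -0.29 and 0.13 for SULT1A1, between -0.064 and 0.34 for SLC26A1, between -0.14 and 0.028 for TPST1 and between -0.19 and 0.0095 for TPST2. The exact p passed 0.05 without CON replicate 6 (0.0238) or MET replicate 5 (0.0397) for SULT1E1 and without MET replicate 4 (0.0238) for PAPSS2. Of 26 other settings each, GOT1 was called in 18, SQOR in 17, UGT3A2 in 21 and SUMF1 in 7. At 66 to 102 reads per library, PAPSS1 has a counting error of 9.90 to 12.3% in a library.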

Other observations

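Sulfatases, which remove sulfate, and glucuronidation, the other main conjugation of steroids and phenols, were followed as lists of their own. Of 11 tested sulfatases and their activators, 1 was called lower and 0 higher over the 12 libraries, and 0 were called over the 10 samples, where 2.32% of all genes were called lower over the 12 libraries (edgeR quasi-likelihood test, median log2 fold change -0.05). At an unadjusted p of 0.05, 1 was higher and 1 lower over the 12 libraries (10.2% and 10.4% of all genes), and 1 was higher and 2 lower over the 10 samples (7.83% and 8.52%). DESeq2 called 2 over the 12 libraries and 0 over the 10 samples (9.95% and 4.83% of all genes). SUMF1, which activates sulfatases by making formylglycine at their active site, fell from 55.2 ± 7.57 CPM in CON to 43.3 ± 3.58 CPM in MET (log2 fold change -0.36, FDR = 0.0849 over the 12 libraries and 0.202 over the 10 samples, edgeR quasi-likelihood test). Among the fits that left out 1 library it was called in 2 of 12, without CON replicate 3 or 6. ARSA, arylsulfatase A, was at 13.2 ± 4.997 CPM in CON and 21.1 ± 2.99 CPM in MET. Its log2 fold change was 0.62 over the 12 libraries (FDR = 0.144) and 0.67 over the 10 samples (FDR = 0.24, both edgeR quasi-likelihood tests). STS, the steroid sulfatase, outside the rule for named genes, was at 1.53 ± 1.12 CPM in CON and 2.07 ± 2.504 CPM in MET.

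Of 7 tested genes of the UGT family and of UDP-glucuronate supply, 1 was called lower and 0 higher over the 12 libraries, and 0 were called over the 10 samples, and the median log2 fold change was -0.46 in the first fit and -0.42 in the second (edgeR quasi-likelihood test). Of all genes, 2.32% were called lower and 2.09% higher in the first fit and 0% in the second. At an unadjusted p of 0.05, 3 were lower over the 12 libraries (10.4% of all genes) and 2 over the 10 samples (8.52%), and DESeq2 called 2 and 1 (9.95% and 4.83% of all genes). The gene called, UGT3A2, belongs to a UGT branch known to use other sugars than glucuronic acid, and it fell from 35.2 ± 5.12 CPM in CON to 23.6 ± 2.98 CPM in MET (-0.63, FDR = 0.0402, and 0.172 over the 10 samples, edgeR quasi-likelihood test). It lost the call without CON replicate 1 (FDR = 0.103 by the same test). UGT1A6 was at 9.39 ± 3.73 CPM and 4.82 ± 2.21 CPM. Its log2 fold change was -0.84 over the 12 libraries (FDR = 0.147) and -0.95 over the 10 samples (FDR = 0.223, both edgeR quasi-likelihood tests). UGT1A genes share exons, and reads that overlapped several genes were not counted, so that their levels are uncertain. The hepatocyte marker levels given for each diet stand beside these genes too, and their part was not tested.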
